A study of Homo sapiens with 3 samples.

Results

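The subunits of cohesin and condensin were followed in PC3 cells in which USP16, a deubiquitinase, was silenced. They were taken by symbol from the deposited table and are 10 of its 60930 genes. The 5 cohesin subunits are SMC1A, SMC3, RAD21, STAG1 and STAG2, and the 5 condensin subunits are SMC2, SMC4, NCAPG, NCAPH and NCAPD2. PC3 is an established androgen-independent prostate cancer cell line. The 3 RNA-seq libraries came from PC3 cells carrying a control construct (shCON), the short hairpin shUSP16#1 or the short hairpin shUSP16#2, both against USP16, with 1 library per condition. According to the study's methods, hairpins were carried by the pLKO.1 vector and stable PC3 cells were isolated with puromycin. The sources used here do not say whether the sequenced cells, the control included, had passed through this selection. The study asked what USP16 silencing does to gene expression in cells whose growth it examined. With 1 library per condition, no difference below has a replicate check and no test across samples was possible.

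Cohesin and condensin are ring-shaped complexes built on a pair of SMC (structural maintenance of chromosomes) ATPases closed by a kleisin protein. Cohesin holds sister chromatids together from DNA replication until anaphase and also extrudes the chromatin loops that are halted at CTCF sites. Condensin compacts chromosomes for mitosis, and it comes as condensin I and condensin II, which share SMC2 and SMC4 and differ in their other subunits.

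In GENCODE release 29, which is on GRCh38, the cohesin genes are SMC1A (ENSG00000072501, chromosome X), SMC3 (ENSG00000108055, chromosome 10), RAD21 (ENSG00000164754, chromosome 8), STAG1 (ENSG00000118007, chromosome 3) and STAG2 (ENSG00000101972, chromosome X). The condensin genes are SMC2 (ENSG00000136824, chromosome 9), SMC4 (ENSG00000113810, chromosome 3), NCAPG (ENSG00000109805, chromosome 4), NCAPH (ENSG00000121152, chromosome 2) and NCAPD2 (ENSG00000010292, chromosome 12). The subunits of a complex are thus spread over the genome, and all are protein-coding.

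Expression was given as TPM, in which reads are divided by transcript length and every library is brought to the same sum of 1000000. Levels of different genes can therefore be set side by side, but the depth of each library is unknown. USP16 stood at 19.92 TPM in shCON against 3.5 TPM with shUSP16#1 and 1.08 TPM with shUSP16#2, so the targeted transcript was lower in both libraries labelled as knockdowns and lowest under shUSP16#2. The epithelial markers KRT8, KRT18 and EPCAM lay between 135.93 and 947.26 TPM in the 3 libraries, and KLK3, which PC3 cells are known to lack, was listed at 0 in each. The leukocyte markers PTPRC and CD3E reached at most 0.14 TPM, and the fibroblast markers DCN and PDGFRA were at 0, but COL1A1 read 4.19, 10.71 and 4.78 TPM in shCON, shUSP16#1 and shUSP16#2. Of the endothelial markers, PECAM1 read 0.14, 0.72 and 1.28 TPM and VWF at most 0.07 TPM. Protein-coding genes held 93.2%, 95.3% and 88.7% of the summed TPM in shCON, shUSP16#1 and shUSP16#2. The part of these values in the results was not tested. A change is the difference in log2(TPM + 1) between a hairpin library and shCON, which comes out too small where the level is low. Over the 13637 genes that averaged 1 TPM or more, which include all 10 subunits, the median change was -0.17 under shUSP16#1 and -0.37 under shUSP16#2.

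All 5 cohesin subunits were lower under both hairpins, and each was lower under shUSP16#2 than under shUSP16#1. The core of the ring consists of SMC1A and SMC3, which form the SMC pair, and RAD21, the kleisin that is cut at anaphase. SMC1A was at 13.33 TPM in shCON against 7.99 TPM with shUSP16#1 and 4.95 TPM with shUSP16#2, which are log2 changes of -0.67 and -1.27. SMC3 was at 9.48, 4.63 and 2.24 TPM in the same order, with log2 changes of -0.90 and -1.69. Within the SMC pair, SMC1A kept more of its control level on the deposited scale. It was at 59.9% under shUSP16#1 and 37.1% under shUSP16#2, against 48.8% and 23.6% for SMC3. RAD21 was the most abundant of the 10 subunits in every library, at 92.95 TPM in shCON against 48.46 TPM with shUSP16#1 and 29.14 TPM with shUSP16#2 (log2 changes of -0.93 and -1.64).

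STAG1 and STAG2 are alternative subunits that bind RAD21, so a cohesin complex holds either one or the other. STAG2 was the more abundant, at 18.08 TPM in shCON against 6.86 TPM with shUSP16#1 and 3.87 TPM with shUSP16#2. Its log2 changes of -1.28 and -1.97 were the furthest below 0 of the cohesin subunits. STAG1 was at 5.97, 2.75 and 1.34 TPM, with log2 changes of -0.89 and -1.57, and it had the lowest level of the 10 subunits in all 3 libraries. Both paralogs were thus lower together, and the ratio of STAG2 to STAG1 was 3.03 in shCON, and 2.49 and 2.89 with shUSP16#1 and shUSP16#2.

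**Figure D1:**
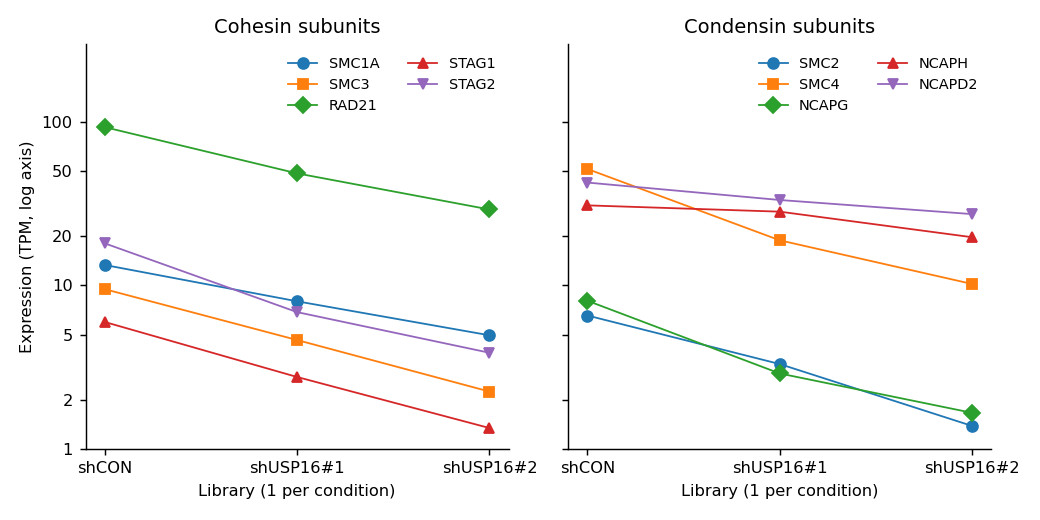
Level of each cohesin and condensin subunit in TPM on a log axis, in the shCON, shUSP16#1 and shUSP16#2 libraries (1 library each, so no error bars), with lines joining the same gene and no meaning as a time course. RAD21 is the highest in every library, from 92.95 to 29.14 TPM, and the lines of NCAPH and NCAPD2 are the flattest.

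The condensin subunits were also lower under both hairpins, but by unequal amounts, and NCAPH was not below the median of all genes under shUSP16#1. SMC4, which pairs with SMC2 in both condensins, was at 51.54 TPM in shCON against 18.87 TPM with shUSP16#1 and 10.2 TPM with shUSP16#2. Its log2 changes of -1.40 and -2.23 were the furthest below 0 of all 10 subunits. SMC2 was at 6.54, 3.3 and 1.38 TPM, with log2 changes of -0.81 and -1.66. NCAPG, a HEAT-repeat subunit of condensin I, was at 8.05 TPM in shCON against 2.89 TPM with shUSP16#1 and 1.66 TPM with shUSP16#2 (log2 changes of -1.22 and -1.77). These 3 genes were thus at between 35.9% and 50.5% of the control level under shUSP16#1 and between 19.8% and 21.1% under shUSP16#2.

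NCAPH and NCAPD2 stayed nearer to the control. NCAPH, the kleisin of condensin I, was at 30.87 TPM in shCON against 28.25 TPM with shUSP16#1 and 19.71 TPM with shUSP16#2, with log2 changes of -0.12 and -0.62. NCAPD2, the other HEAT-repeat subunit of condensin I, was at 42.57, 33.3 and 27.3 TPM, with log2 changes of -0.35 and -0.62. With the median of the tested genes subtracted, NCAPH lay at 0.05 under shUSP16#1 and -0.25 under shUSP16#2, so its direction under shUSP16#1 turned with this scaling, and NCAPD2 lay at -0.17 and -0.25. NCAPG, NCAPH and NCAPD2 belong to the same complex, yet the ratio of NCAPH to NCAPG was 3.83 in shCON, and 9.78 and 11.9 with shUSP16#1 and shUSP16#2. The ratio of NCAPD2 to NCAPG was 5.29, 11.5 and 16.4. The split into SMC2, SMC4 and NCAPG on one side and NCAPH and NCAPD2 on the other was made after the values were seen.

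The promoters of the subunits were read for letters known from cell cycle genes. The cell cycle homology region, TTTGAA or TTCGAA, is bound by the DREAM complex and by MuvB with B-MYB, and CCAAT is bound by NF-Y. RefSeq promoters on GRCh38.p14, from 250 bases before to 50 bases after the start, were found for 9 of the 10 subunits, with 14 promoters in all since some genes have several starts. Both strands were searched, so that TTCAAA and ATTGG stand for the reverse strand of TTTGAA and CCAAT, and no match of the first motif overlapped one of the other. The first motif was found in 4 of the 5 condensin genes (SMC2, SMC4, NCAPG and NCAPD2) and in SMC3 of the 4 cohesin genes with a promoter, that is in 35.7% of these 14 promoters and 16.4% of all 35116 promoters. These 4 windows of 30 bases are shown because they put 1 cohesin gene beside condensin genes that were lower by unequal amounts, and capitals mark the match.
NCAPG, chr4:17810932-17810961, forward strand: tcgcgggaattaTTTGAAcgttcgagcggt
SMC4, chr3:160399563-160399592, forward strand: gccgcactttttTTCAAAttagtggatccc
NCAPD2, chr12:6493945-6493974, forward strand: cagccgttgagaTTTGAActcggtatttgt
SMC3, chr10:110567532-110567561, forward strand: cagaattctagaTTCAAAagaaatccacca

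The match lay 35 to 30 bases before the start in NCAPG, 75 to 70 bases before it in SMC4, 145 to 140 in NCAPD2 and 151 to 146 in SMC3, and in SMC2 it ran across the start. CCAAT was found in NCAPH, NCAPD2, STAG1 and STAG2, in 35.7% of the 14 promoters and 34.6% of all promoters, a share near the background. It is shown for NCAPH and STAG2, where it lay 112 to 108 and 157 to 153 bases before the start. In the mean of both hairpins, NCAPH had the smallest log2 change of the condensin genes and STAG2 the largest of the cohesin genes.
NCAPH, chr2:96335641-96335670, forward strand: gaccccaagaagcCCAATcagacggggtcc
STAG2, chrX:123960390-123960419, forward strand: tcagtcggccacgATTGGtcggtgactggg

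NCAPD2 and NCAPG, whose log2 changes differed, both held the first motif. NCAPH, SMC1A, STAG1 and STAG2, whose log2 changes also differed, did not. The relation of the motifs to the changes was not tested. A match describes the letters only.

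Cohesin and condensin were then compared. The median log2 change of the cohesin subunits was -0.90 under shUSP16#1 (range -1.28 to -0.67) and -1.64 under shUSP16#2 (range -1.97 to -1.27). That of the condensin subunits was -0.81 (range -1.40 to -0.12) and -1.66 (range -2.23 to -0.62). The condensin median minus the cohesin median was 0.09 under shUSP16#1 and -0.02 under shUSP16#2. The medians thus lay close together, while the condensin subunits spread over a wider range than the cohesin subunits under each hairpin. In the mean of both hairpins, the ends of this order were NCAPH at -0.37 and SMC4 at -1.82, both of condensin, and the cohesin subunits lay between -0.97 for SMC1A and -1.62 for STAG2.

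**Figure D2:**
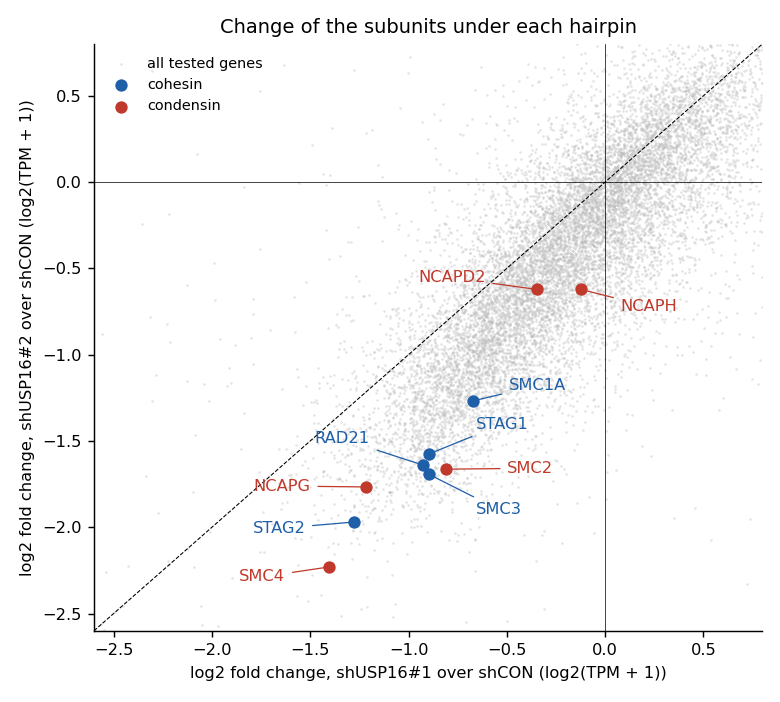
Log2 change of each tested gene under shUSP16#1 (x axis) and shUSP16#2 (y axis), on the log2(TPM + 1) scale, with cohesin subunits in blue, condensin subunits in red and all tested genes in grey; the axes leave out genes with larger changes, and the dashed line marks equal change. All 10 subunits lie below 0 on both axes (NCAPH at 0.05 under shUSP16#1 once the median of all genes is subtracted) and below the dashed line, with NCAPH and NCAPD2 apart from the other 8.

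Summed levels gave another picture than the medians. The summed level of the cohesin subunits was 139.81 TPM in shCON against 70.69 TPM with shUSP16#1 and 41.54 TPM with shUSP16#2, and that of the condensin subunits was 139.57, 86.61 and 60.25 TPM. The ratio of condensin to cohesin was therefore 0.998, 1.23 and 1.45 in these libraries. RAD21 alone made up 66.5% of the cohesin sum in shCON, 68.6% under shUSP16#1 and 70.1% under shUSP16#2, while NCAPH and NCAPD2, which stayed nearer to the control, were among the more abundant condensin subunits. Over the SMC proteins alone the order was the opposite: the sum of SMC2 and SMC4 over that of SMC1A and SMC3 was 2.55 in shCON, and 1.76 and 1.61 with shUSP16#1 and shUSP16#2. These ratios were taken on the deposited scale, and the genes differ in the GC content of their longest transcript. It was 40.7% for RAD21, 47.6% for NCAPH and 52.5% for NCAPD2. For SMC2 and SMC4 it was 37.6% and 37.3%, and for SMC1A and SMC3 47.2% and 38.9%. The part of GC content in these ratios was not tested.

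On the deposited scale all 10 subunits were lower under both hairpins, as were 57.2% of all tested genes, and all 10 were lower under shUSP16#2 than under shUSP16#1, as were 73.4%. Of the 10, 9 lay below the median of all genes under both hairpins (NCAPH did not), against 41.7% of tested genes. STAG2, SMC4 and NCAPG, that is 3 of 10, were at least 2-fold lower under both hairpins, against 4.60% of tested genes, and 0 were at least 2-fold higher, against 1.14%. The same 3 reached this threshold under shUSP16#1, where 5.79% of tested genes did. Under shUSP16#2, 8 of 10 did (all but NCAPH and NCAPD2), against 19.5%. These 8 were also at least 1.5-fold lower under both hairpins, against 20.8%. Relative to the median of all genes, 3 of 10 were at least 2-fold lower under both hairpins, where 2.00% of tested genes were lower and 2.50% higher. Since the 2 comparisons share the shCON library, their agreement in direction is not independent. In these bulk libraries, fewer cells in S phase or mitosis and less RNA of these genes per cell cannot be told apart.

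The change of the subunits went with the GC content of their transcripts. By the longest transcript in GENCODE release 29, NCAPD2 had 52.5% GC, NCAPH 47.6% and SMC1A 47.2%, and the other 7 lay between 36.6% for STAG2 and 40.7% for RAD21, against a median of 49.1% over tested genes. Over the 10 subunits, which share the same libraries, the change correlated with GC content at Pearson's r = 0.84 and Spearman's rho = 0.79 under shUSP16#1 and at 0.93 and 0.92 under shUSP16#2. Over all tested genes with a GC value, the rank correlation was 0.53 under shUSP16#1 and 0.63 under shUSP16#2. The part of GC content in the result was not tested, and the longest NCAPH transcript, at 2952 bases, is shorter than the length of 6030 bases in the deposited table.

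**Figure D3:**
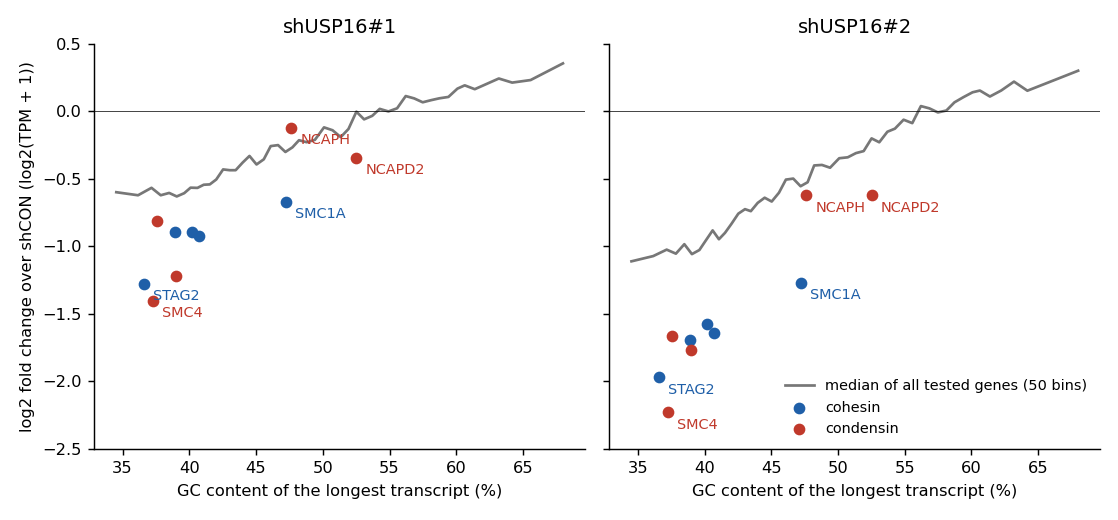
Log2 change of each cohesin (blue) and condensin (red) subunit against the GC content of its longest transcript in percent, under shUSP16#1 and shUSP16#2, on the log2(TPM + 1) scale, with the median of tested genes in each of 50 bins of GC content as a line. All 10 subunits but NCAPH under shUSP16#1 lie below this line, and SMC4 lies furthest below it under both hairpins.

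With the trend over GC content removed and the median of all genes added back, all 10 subunits stayed below 0 under both hairpins, although NCAPH under shUSP16#1 lay above the genes of like GC content, at -0.12 against a median of -0.27. SMC4 was then at -1.01 and -1.57 on the log2 scale and was the 1 subunit still at least 2-fold lower under both hairpins, against 1.99% of tested genes (0.775% were higher). STAG2 was at -0.83 and -1.27 and NCAPG at -0.76 and -1.08. NCAPD2, the subunit richest in GC, moved the other way, from -0.35 and -0.62 to -0.51 and -0.79. It then lay below SMC2 under shUSP16#1, at -0.51 against -0.36, and above it under shUSP16#2, at -0.79 against -0.98, so the split within condensin no longer held under both hairpins. NCAPH stayed nearest to 0, at -0.03 and -0.47. The cohesin median was -0.53 under shUSP16#1 and -1.08 under shUSP16#2, and the condensin median was -0.51 and -0.98.

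The levels within each complex can be compared per length. In shCON the order was RAD21, SMC4, NCAPD2, NCAPH, STAG2, SMC1A, SMC3, NCAPG, SMC2 and STAG1. Under both hairpins NCAPD2 and NCAPH stood above SMC4, and SMC1A stood above STAG2. With no spread between replicates, neighbours in this order cannot be separated. The place of NCAPH against SMC4 also depends on its deposited length of 6030 bases, since its longest GENCODE transcript has 2952 and a shorter length would give a higher TPM in every library, shCON included. The ratio of NCAPH to SMC4 was 0.599 in shCON, and 1.497 and 1.93 with shUSP16#1 and shUSP16#2, whereas the ratio of NCAPD2 to NCAPH was 1.38, 1.18 and 1.39. NCAPH and NCAPD2 thus kept a similar proportion to each other. The ratio of SMC4 to SMC2 was 7.88, 5.72 and 7.39, with no steady direction. In cohesin, the ratio of SMC1A to SMC3 was 1.41, 1.73 and 2.21 and that of RAD21 to SMC3 was 9.80, 10.5 and 13.0, so SMC3 was the lower partner in each pair by a margin that was wider in the knockdown libraries.

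The subunits that set condensin II apart were read from a list of related genes. NCAPG2 was at 38.63 TPM in shCON against 20.91 TPM with shUSP16#1 and 16.34 TPM with shUSP16#2, and NCAPD3 was at 50.96, 30.99 and 25.89 TPM. NCAPH2, the kleisin of condensin II, was at 33.69, 26.99 and 35.66 TPM and so was near its control level under shUSP16#2. NCAPH2 had the log2 change nearest to 0 of these 3 subunits, at -0.31 and 0.08. In condensin I, NCAPH was likewise nearest under shUSP16#1, and level with NCAPD2 at -0.62 under shUSP16#2. With the GC trend removed, NCAPH2 was at -0.68 and -0.44, NCAPG2 at -0.49 and -0.66 and NCAPD3 at -0.64 and -0.92. NCAPH2 was then the furthest from 0 of these 3 under shUSP16#1 and the nearest under shUSP16#2. The sum of NCAPG, NCAPH and NCAPD2 over that of NCAPG2, NCAPH2 and NCAPD3 was 0.661 in shCON, and 0.817 and 0.625 with shUSP16#1 and shUSP16#2, with no steady direction between the condensins. MCPH1, an inhibitor of condensin II, was at 3.01, 2.87 and 1.02 TPM.

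The factors that load, release and protect cohesin were mostly lower as well. NIPBL, which loads cohesin on DNA, was at 3.84 TPM in shCON against 1.42 TPM with shUSP16#1 and 1.18 TPM with shUSP16#2, and its partner MAU2 was at 17.03, 17.59 and 9.51 TPM. All 7 genes of release, maintenance and acetylation (WAPL, PDS5A, PDS5B, ESCO1, ESCO2, CDCA5 and HDAC8) were lower under both hairpins, where 57.2% of all tested genes were, although ESCO1 and HDAC8, at -0.06 and -0.07 under shUSP16#1, turned to 0.11 and 0.10 with the median of all genes subtracted and to 0.33 and 0.32 with the GC trend removed. The median log2 change of the 7 was -0.86 and -1.29, and 5 lay below the median of all genes under both hairpins, against 41.7% of tested genes. SGO1 and SGO2, which protect cohesin at centromeres, had log2 changes of -0.82 and -1.57 and of -0.89 and -1.70. Separase (ESPL1) and its inhibitor securin (PTTG1), which time the cut of RAD21, stayed nearer to the control, at -0.22 and -0.11 and at -0.39 and -0.61. Relative to the median of all genes, ESPL1 lay at -0.05 and 0.26. With the GC trend removed, ESPL1 was at -0.49 and -0.50 and PTTG1 at -0.35 and -0.56. SGO1 was then at -0.45 and -1.04 and SGO2 at -0.47 and -0.96, so ESPL1 was not nearer to 0 than these under shUSP16#1. Of the 35 tested related genes, PDS5A, SGO1 and SGO2 had log2 changes nearest to the medians of both complexes, at a distance of 0.09 from that of condensin in each case, and of 0.07, 0.10 and 0.06 from that of cohesin, over the 2 hairpins. CTCF, the boundary factor at which cohesin loops stop, was at 24.39, 13.97 and 10.95 TPM.

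The meiotic cohesin genes SMC1B and RAD21L1 were below the minimum level, STAG3 was at 0.83, 1.8 and 0.79 TPM and REC8 at 2.28, 1.67 and 0.85 TPM, so none stood near the mitotic subunits in shCON. In the SMC5/6 complex, another SMC complex, SMC5 (5, 2.02 and 1.33 TPM) and SMC6 (4.49, 2.11 and 1.05 TPM) were lower like the SMC subunits of cohesin and condensin, and NSMCE1 (39.46, 46.5 and 47.62 TPM) was higher under both hairpins. Log2 changes were -0.33 and -0.37 for NSMCE2, -0.24 and -0.33 for NSMCE3 and -0.43 and -0.77 for NSMCE4A. With the GC trend removed, the median of the 6 genes was -0.22 and -0.34, near the medians of all genes, -0.17 and -0.37. Of the other mitotic chromosome proteins, TOP2A, the topoisomerase that works beside condensin, was at 33.87, 12.89 and 8.77 TPM, and KIF4A and MKI67 were lower too, giving a median log2 change of -1.23 and -1.65. The 6 mitotic kinases and cyclins were lower under both hairpins, with a median of -0.74 and -1.06, and their part in the change of the subunits was not tested. Over the 35 tested related genes, 31 were lower under both hairpins, where 57.2% of all tested genes were, and 1 was higher, and 6 (NIPBL, PDS5B, ESCO2, TOP2A, MKI67 and AURKA) were at least 2-fold lower, where 4.60% of all tested genes were, with NIPBL at the threshold under shUSP16#1. Below the median of all genes under both hairpins were 26 of the 35, against 41.7% of tested genes. Their median log2 change was -0.70 and -1.09, less far from 0 than the median of the 10 subunits, -0.90 and -1.65. With the GC trend removed, these medians were -0.54 and -0.75 for the related genes and -0.52 and -1.04 for the subunits. The order thus held only under shUSP16#2.

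**Figure D4:**
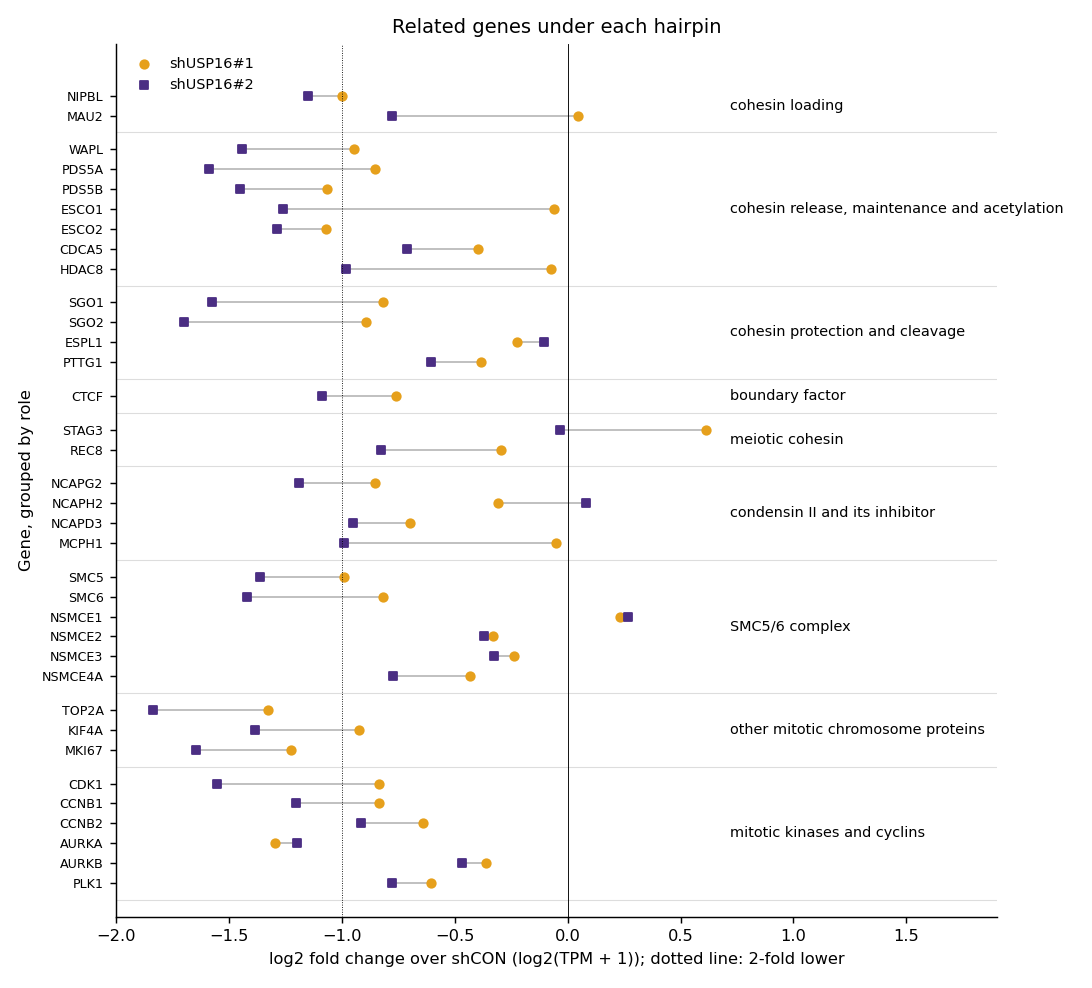
Log2 change over shCON of 35 related genes under shUSP16#1 (circles) and shUSP16#2 (squares), grouped by role, on the log2(TPM + 1) scale, with 0 as a solid line and a 2-fold lower level as a dotted line. All but 4 genes lie below 0 under both hairpins (26 of 35 lie below the median of all tested genes under both), and NSMCE1 is the gene above 0 under both.

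Reads of near-identical copies could have been split by the counting. The pseudogenes SMC4P1, NCAPD2P1 and NCAPGP1 were listed at 0 in the 3 libraries, and NCAPGP2 was at 0.11 TPM in shCON and 0 under the hairpins, low against 8.05 TPM for NCAPG. The antisense genes RAD21-AS1 (0.06 TPM or less) and SMC2-AS1 (0.26, 0.47 and 0 TPM) were low beside RAD21 and SMC2, although the sources used here do not state whether the counting used strand.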

How the data were processed

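The authors deposited TPM values, given to 2 decimals, of 60930 genes. Total RNA from PC3 cells was extracted with TRIzol and libraries were made with the TruSeq kit per the labels, and the expression profiles came from the Majorbio Cloud Platform. The submitters' processing notes name CASAVA, HISAT2 and hg19, while the quantification tool and annotation are not given in the sources used here. TPM keeps no depth, so depth and precision are unknown. The table holds 3 columns that repeat others with identical values, which were not used.

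Of entries that repeat a name, 1211 in all, the one with the highest mean was kept, and genes averaging 1 TPM or more were analysed. Changes were taken as log2(TPM + 1) minus shCON. The GC trend was removed as the median change within each of 50 GC bins, with the median of all genes added back, for 13296 genes with a transcript in GENCODE release 29, matched by identifier. Promoters came from RefSeq (GRCh38.p14). The reference was used for names, GC content, lengths and promoters, not for coordinates of the reads.

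The members and lists were chosen with earlier results of these data known. The genes named were USP16, the 10 subunits, the 37 related genes and cell type markers, and the 3 related genes nearest to the medians of each complex. Some of the markers are not reported here. Copies and antisense genes were added to these once the data had been seen. The procedure was tested on simulated data with raised control levels and a smaller pseudocount, so low levels were not covered by it. As alternatives, the pseudocount was set to 0.1 and changes were centred on the median of all genes. Further ones were rescaling over protein-coding genes, removal of the GC trend, the mean in place of the median, no minimum or 5 TPM, 1.5-fold and each hairpin alone. Python 3.11.15, numpy 2.4.6, pandas 2.3.3 and matplotlib 3.10.9 were used.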

Additional observations from a re-analysis of the deposited data

Results flagged for a closer look

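In 3 of the related genes the log2 changes under the hairpins had opposite signs. MAU2, the partner of NIPBL in loading cohesin, was at 0.044 under shUSP16#1 and -0.78 under shUSP16#2. STAG3, a meiotic cohesin subunit, was at 0.61 and -0.032, with levels of at most 1.8 TPM. NCAPH2, the kleisin of condensin II, was at -0.31 and 0.080. Opposite signs were found in 17.4% of all tested genes (2375 genes). The difference between the hairpins was not tested, since each had 1 library.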

How the results depend on the processing

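The median changes of both complexes stayed below 0 under every alternative run. For cohesin under shUSP16#1 and shUSP16#2 they were -1.02 and -2.03 with a pseudocount of 0.1, -0.73 and -1.27 relative to the median of all genes, -0.53 and -1.08 with the GC trend removed, -0.54 and -1.11 with median GC content over transcripts, and -0.44 and -0.96 with the GC and length trend removed. For condensin they were -0.97 and -2.17, -0.64 and -1.30, -0.51 and -0.98, -0.45 and -0.97, and -0.46 and -0.89 in the same order, and the mean in place of the median gave -1.38 under shUSP16#2. The condensin median minus the cohesin median was -0.023 under shUSP16#1 with the GC and length trend removed. Under shUSP16#2 it was -0.13 with a pseudocount of 0.1, 0.10 with the GC trend removed, 0.15 with median GC content over transcripts, 0.078 with the GC and length trend removed and 0.25 by the mean, so its sign depended on the setting. The number of subunits that met the 2-fold threshold with both hairpins, 3 as reported, was 5 with a pseudocount of 0.1, 1 with the GC trend removed, 0 with median GC content or with the GC and length trend removed, 8 at 1.5-fold, 2 with a minimum of 5 TPM, and 3 to 8 with each hairpin alone. NCAPG, SMC2 and STAG1 averaged less than 5 TPM and left the tested genes at that minimum. For related genes the number that met the threshold, 6 as reported, was 11 with a pseudocount of 0.1, 2 (relative to the median of all genes) and 2, 1 and 1 with the GC settings in that order, 20 at 1.5-fold, 3 with a minimum of 5 TPM, and 6 to 18 with each hairpin alone. Over all 13637 tested genes it was 627 (4.60%) as reported, 1095 with a pseudocount of 0.1 and 273 (2.00%) relative to the median. With the GC settings it was 265 (1.99%), 266 and 259, and at 1.5-fold it was 2836 (20.8%). A minimum of 5 TPM gave 444 out of fewer tested genes. The size of that set is not given, so the 2 subunits and 3 related genes have no share beside them. On the main set, shUSP16#1 and shUSP16#2 alone gave 789 (5.79%) and 2659 (19.5%).

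Median GC content over transcripts, the GC and length trend, and keeping the first of repeated names were chosen after seeing the data. Of 90 values of single subunits under alternatives, each the mean of both hairpins or 1 hairpin alone on the deposited scale, 90 were below 0, and 65 moved by over 0.1. Under the GC settings the medians of all genes, -0.17 and -0.37 under shUSP16#1 and shUSP16#2, were added back. A value below 0 there is thus not always below that of other genes. The mean of NCAPH was -0.25 with the GC trend removed and -0.04 with the GC and length trend removed. Taken per hairpin, NCAPH under shUSP16#1 lay at 0.05 relative to the median of all genes. The causes were not tested. No paired analysis was possible because there was 1 library in each group. The depth is unknown, so the precision of low levels, such as STAG1 at 1.34 TPM or SMC2 at 1.38 TPM under shUSP16#2, cannot be given.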
